A study of Mus musculus with 5 samples.

Results

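The Wnt ligands, their receptors and their secreted modulators were examined in the dLGN (dorsal lateral geniculate nucleus, where the thalamus relays vision) of newborn mice lacking Sema6a, a gene for a membrane guidance protein. Genes were taken by symbol: Wnt, Fzd, Dkk, Rspo or Sfrp followed by a digit, and Lgr4, Lgr5, Lgr6, Lrp5, Lrp6 and Axin2. This gave 48 of 18193 genes and 92 of 45037 probe sets. They are 19 Wnt ligands, 10 frizzled receptors (Fzd), 3 Lgr receptors, 2 Lrp co-receptors, 4 R-spondins (Rspo), 4 Dickkopf genes (Dkk), 4 secreted frizzled-related genes (Sfrp), Axin2 and Fzd10os, a transcript named for the strand opposite Fzd10. Each gene was read at its brightest probe set, the one with the highest mean over all arrays, and its other probe sets served as a check. The genes were picked by symbol and not by expression, while the choice of probe set used expression values, those of the KO arrays included. The rule was written with earlier results of these data known.

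The mice had homozygous loss of Sema6a (KO, 2 arrays) or were heterozygous for the same mutation (HET, 3 arrays), on a C57BL/6 background, at postnatal day 0. The controls therefore carried 1 mutant allele, and no wild type was analysed here. Each array was hybridised with RNA from dLGN tissue pooled over pups of 1 genotype and several litters, and the part of Sema6a that the mutation disrupts is not named in the labels. Values are log2 expression after RMA, a normalisation that makes the arrays' distributions alike.

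Wnt proteins are secreted signals that bind frizzled receptors together with Lrp5 or Lrp6, which keeps β-catenin from being degraded and lets it act with TCF/LEF factors on target genes such as Axin2. R-spondins bind Lgr4, Lgr5 and Lgr6 and keep frizzled receptors at the cell surface, while Dickkopf proteins bind Lrp5 and Lrp6 and secreted frizzled-related proteins bind Wnts. In the developing thalamus the TCF factor Tcf7l2 marks the postmitotic neurons, and frizzled receptors such as Fzd3 act in axon guidance through the planar cell polarity pathway.

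Sema6a was lower in both KO pools at its brightest probe set, with 7.81 and 7.85, against 10.47, 10.65 and 10.39 in the HET pools (limma adjusted p = 0.0236). Its 2 other probe sets gave log2 fold changes of -2.27 and -2.52, also with separated pools, and missed the threshold of 0.05 (limma adjusted p = 0.0546 for each). Of 14 relay neuron markers 13 reached the median of all probe sets, 6.39, in both groups. The mean of the 14 was 10.48 and 10.84 in the KO and 10.39 to 10.63 in the HET pools. Both KO pools lay above every HET pool for 5 of them and below for 2, 50% in all, beside 29.7% of all genes. The 5 were Gbx2 (log2 difference 1.97), Foxp2 (0.48), Tcf7l2 (0.23), Olig3 (0.21) and Prox1 (0.18). The 2 were the transcription factor gene Rora (-0.36) and the serotonin transporter gene Slc6a4 (-1.44). For Slc6a4 the KO pools gave 7.98 (replicate 1) and 10.599 (replicate 2), and the HET pools 10.605 to 10.85. The correlations between arrays over all probe sets lay between 0.985 and 0.995. Knockout replicate 1 stood apart in further values. The mean of 14 GABAergic and prethalamic markers was 8.89 there and 6.32 in knockout replicate 2, against 5.87 to 6.37 in the HET pools, and 7 of the 14 were higher in both KO pools than in every HET pool. Its Gapdh control probe sets differed by 2.34 between the 3′ and 5′ ends, against 0.77 to 1.32 in the HET pools. The mean of 15 microglia and macrophage markers was 8.59 and 8.36 in the KO pools and 6.80 to 6.98 in the HET pools, with 14 of 15 higher in both KO pools than in every HET pool. The mean of 9 oligodendrocyte lineage markers was 9.15 and 9.28 in the KO and 8.84 to 8.99 in the HET pools, with 6 of the 9 higher and 1 lower in both KO pools. Pools were thus separated for 50% of the GABAergic, 93.3% of the microglia and 77.8% of the oligodendrocyte markers, beside 29.7% of all genes. The mean of 12 endothelial markers was 9.19 and 9.30 in the KO and 8.80 to 9.15 in the HET pools, and that of 12 meningeal markers was 6.61 and 7.02 in the KO and 6.89 to 8.004 in the HET pools. In bulk tissue, fewer cells of a type and less RNA per cell cannot be told apart. The smallest p that exact permutation of 2 and 3 pools allows is 0.1, so all p-values here are limma's, and they measure the spread between pools.

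The secreted enhancer Rspo2 was called higher at 1 of its 2 probe sets, and the other members gave values without a call. In limma 1 of 48 members passed an adjusted p of 0.05, higher in the KO, where 0.0879% of all genes were called higher, 0.0165% lower and 0.104% either way. At an unadjusted p under 0.05, 8 members were higher and 8 lower, which is 33.3% of the members beside 11.8% of all genes (6.9% higher and 4.9% lower). Both KO pools lay above every HET pool for 9 members and below for 10, 39.6% in all, beside 29.7% of all genes (15.8% above and 13.9% below). A log2 fold change of at least 1 in size was found for 10 members, beside 2.51% of all genes. The median log2 fold change of the members was 0.07 and that of all genes 0.01. The median size of the change, without its sign, was 0.28 for the members and 0.15 for all genes. Over all 92 probe sets of the members the shares were lower. An unadjusted limma p under 0.05 was found for 22.8%, beside 11.1% of all probe sets. Pools were separated for 27.2%, a share not counted over all probe sets, and the median log2 fold change was -0.02. These counts describe the members and were not tested as a set.

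**Figure D1:**
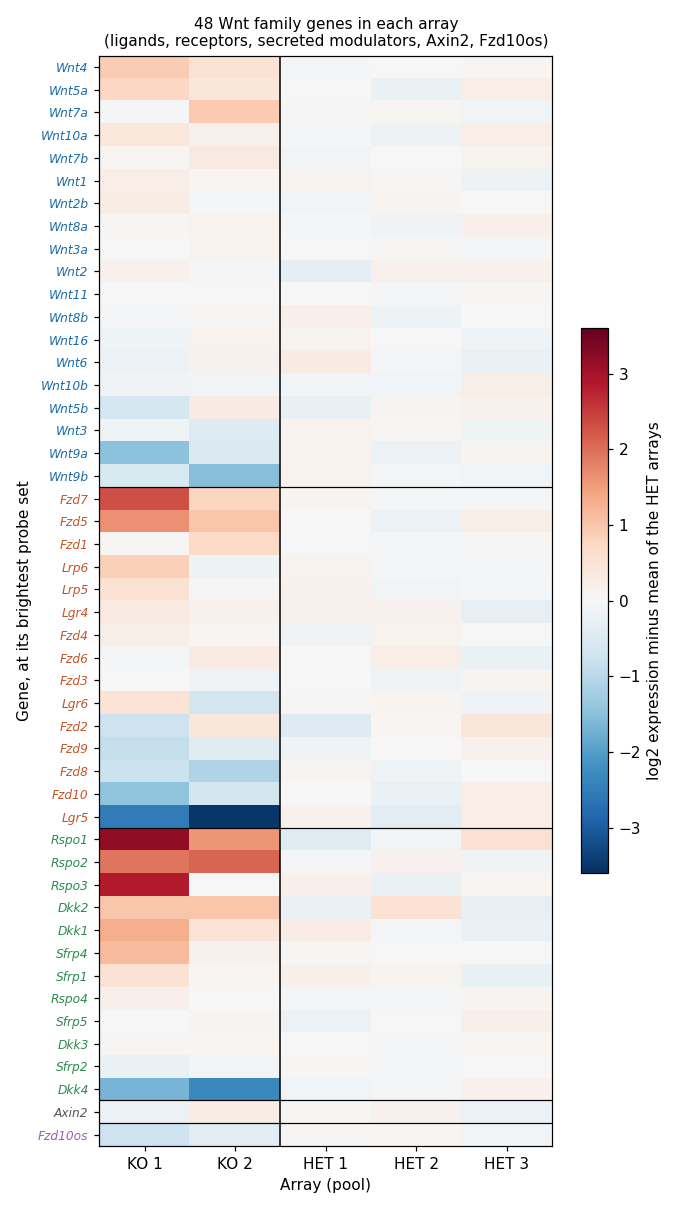
Log2 expression of each of the 48 genes in each array minus the mean of the 3 HET arrays, by role, with ligands, receptors, secreted modulators, Axin2 and Fzd10os from top to bottom. The R-spondin genes include the deepest reds in the KO columns, Lgr5 and Dkk4 are blue in both KO arrays, and Rspo3 is red in knockout replicate 1 only.

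Rspo2 encodes an R-spondin that binds Lgr receptors and strengthens Wnt signalling. It read 5.91 and 6.09 in the KO pools, against 3.94, 4.14 and 3.86 in the HET pools. The groups lay far apart, and the KO pools differed from each other by less than the HET pools did. In limma the log2 fold change was 2.02 ± 0.13 (standard error), or 4.05-fold, at an adjusted p of 0.0329. Both levels were below the median of all probe sets, 6.39. The other Rspo2 probe set read 4.75 and 4.56 in the KO and 4.67, 4.55 and 4.62 in the HET pools, a difference of 0.04. In the HET pools it was the brighter of the 2, with a mean of 4.61 against 3.98. The called probe set was thus the brightest over all arrays only through the KO pools, and the call rests on it alone. Leaving out any 1 array kept the change between 1.93 and 2.10, but the call was lost each time, with adjusted p = 0.147 without knockout replicate 1, 0.0751 without knockout replicate 2, and 0.247, 0.176 and 0.234 without control replicates 1, 2 and 3. The microglia markers were higher in the same 2 pools, and their part in the result was not tested.

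Rspo1 and Rspo3 were uneven between the KO pools. Rspo1 read 7.36 and 5.75 in the KO, against 3.71, 4.04 and 4.71 in the HET pools. Both KO pools lay above every HET pool, with a log2 fold change of 2.40 ± 0.53 and an adjusted p of 0.236. The HET mean of Rspo1, 4.15, lay under the median of all probe sets. Rspo3 read 6.21 and 3.34 in the KO, against 3.53, 3.10 and 3.40 in the HET pools. Only knockout replicate 1 was high, and its second probe set gave the same picture, with 5.29 and 3.56 in the KO and 2.94 to 3.64 in the HET pools. Without knockout replicate 1 the log2 difference of Rspo3 was 0.0034 and that of Rspo1 1.59. The GABAergic and prethalamic markers were also high in knockout replicate 1, and their part in these values was not tested. Rspo4 read 5.44 and 5.26 in the KO and 5.19 to 5.33 in the HET pools, which overlap.

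The Dickkopf genes went both ways. Dkk4, an inhibitor that binds the Lrp co-receptors, read 7.40 and 6.77 in the KO pools, against 8.99, 9.002 and 9.24 in the HET pools. The pools did not overlap, the log2 fold change was -1.995 ± 0.21, and the adjusted p of 0.078 missed the threshold. Dkk2 read 5.35 in both KO pools and 4.12, 4.89 and 4.06 in the HET pools, a difference of 0.99 (adjusted p = 0.307). Dkk1, the best known inhibitor of the family, read 4.84 and 4.03 in the KO and 3.81, 3.50 and 3.29 in the HET pools, a difference of 0.90 (adjusted p = 0.357) that was 0.498 without knockout replicate 1. Both genes stayed under the median of all probe sets. Dkk3, which does not act on Lrp co-receptors like its relatives, read 9.93 and 9.96 in the KO and 9.83 to 9.96 in the HET pools, and its 2 probe sets differed in sign, at 0.05 and -0.12.

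The secreted frizzled-related genes varied less. Sfrp2 read 11.32 and 11.47 in the KO pools and 11.58, 11.52 and 11.56 in the HET pools, a difference of -0.16 (adjusted p = 0.635) that was -0.085 without knockout replicate 1. Sfrp4 read 7.43 and 6.45 in the KO and 6.34, 6.29 and 6.29 in the HET pools, a difference of 0.64 (adjusted p = 0.498) that was 0.14 without knockout replicate 1. The HET mean of Sfrp4, 6.31, lay just under the median of all probe sets. Sfrp1 gave 0.30 at its brightest probe set, with overlapping pools, and between -0.38 and -0.21 at the 4 others. Sfrp5 read 4.87 and 4.96 in the KO and 4.65 to 5.04 in the HET pools.

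**Figure D2:**
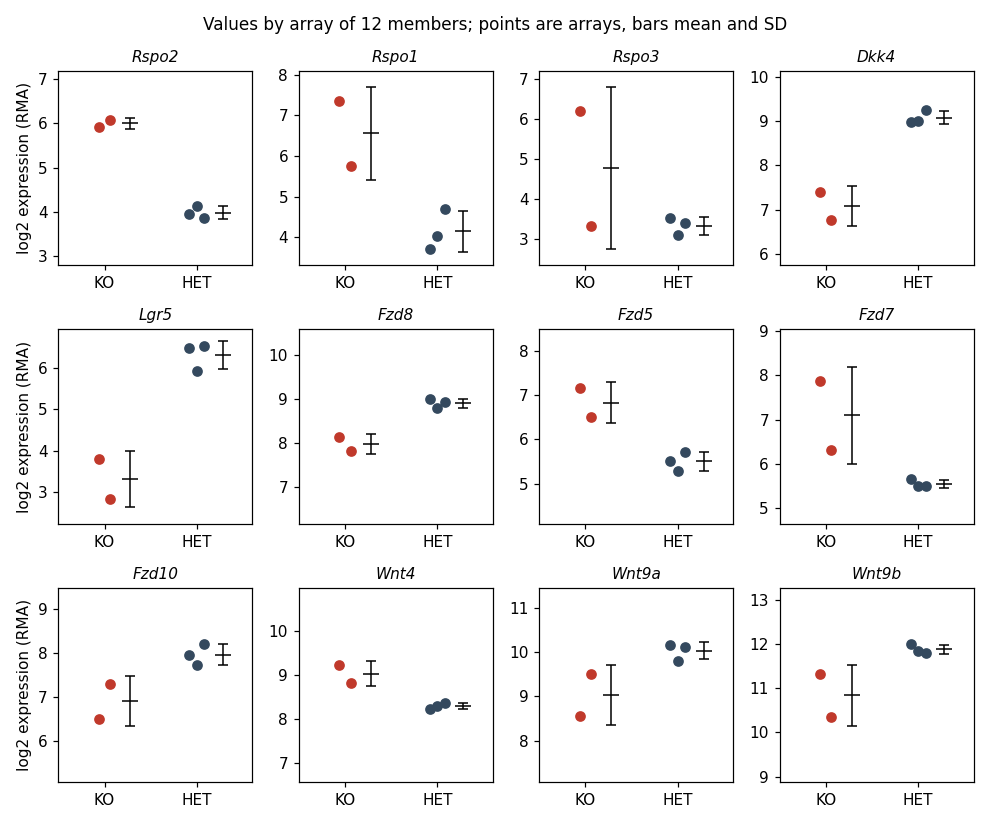
Log2 expression of 12 members in each array, KO on the left and HET on the right of each panel, with the mean and SD beside the points. The KO points of Rspo2, Dkk4, Lgr5 and Fzd8 are clear of the 3 HET points, while the KO points of Rspo3 and Fzd7 lie far apart.

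Among the receptors, Lgr5 had the largest difference of all members and still missed the call. Lgr5, a receptor for R-spondins and itself a target of Wnt signalling, read 3.79 and 2.82 in the KO pools, against 6.48, 5.93 and 6.55 in the HET pools. The pools did not overlap, and the log2 fold change was -3.01 ± 0.34, an 8.07-fold difference with an adjusted p of 0.0834. The HET mean of 6.32 lay just under the median of all probe sets, so the rule for named genes did not take Lgr5, and it was singled out after its values were seen. Its second probe set read 3.80 and 4.72 in the KO and 5.61, 4.22 and 3.87 in the HET pools, which overlap. The sister receptor Lgr4 read 10.09 and 9.91 in the KO and 9.46 to 9.91 in the HET pools, and Lgr6 read 8.51 and 7.37 in the KO and 7.89 to 8.11 in the HET pools. Of the 3 R-spondin receptors Lgr5 was the 1 whose pools did not overlap.

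Of the 10 frizzled receptors, 2 were higher and 3 lower in both KO pools than in every HET pool, 50% beside 29.7% of all genes. Fzd5 read 7.16 and 6.501 in the KO, against 5.51, 5.29 and 5.72 in the HET pools, a log2 fold change of 1.32 ± 0.24 (adjusted p = 0.166). Fzd7 read 7.87 and 6.32 in the KO, against 5.65, 5.49 and 5.49 in the HET pools, and its difference of 1.55 (adjusted p = 0.321) was 0.77 without knockout replicate 1. A second Fzd7 probe set, far under the median level, gave -0.23. For Fzd5 and Fzd7 the HET means, 5.51 and 5.55, lay under the median level.

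Fzd8, Fzd9 and Fzd10 were on the lower side. Fzd8 read 8.13 and 7.82 in the KO, against 8.99, 8.79 and 8.93 in the HET pools, a log2 fold change of -0.92 ± 0.14 (adjusted p = 0.132). Its other probe set gave -0.63 with overlapping pools, and the gene lies on the chromosome of Sema6a, 18. The ligand gene Wnt8a, also on chromosome 18 and under the median level, gave 0.085 with overlapping pools. Fzd9 read 9.19 and 9.61 in the KO, against 9.90, 10.02 and 10.20 in the HET pools, and differed by -0.64 (adjusted p = 0.305). Fzd10 read 6.51 and 7.30 in the KO, against 7.96, 7.72 and 8.20 in the HET pools, a difference of -1.05 (adjusted p = 0.288) that was -0.65 without knockout replicate 1. Fzd10os, its neighbour without overlap in the annotation, read 8.15 and 8.51 in the KO and 8.92, 8.95 and 8.80 in the HET pools. It differed by -0.56 (adjusted p = 0.291) and by -0.59 at its second probe set, and whether its probes read Fzd10 transcripts was not tested.

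The pools overlapped for the remaining receptors at their brightest probe sets. Fzd3, which mice need to form thalamocortical axon tracts, read 11.07 and 10.96 in the KO and 11.12, 10.97 and 11.19 in the HET pools, a difference of -0.08 with a 95% interval from -0.38 to 0.22. Of its 6 probe sets 1 had separated pools, with 9.44 and 9.33 in the KO and 9.94, 9.95 and 10.15 in the HET pools, a difference of -0.63 (adjusted p = 0.195). Lrp6, the Wnt co-receptor, read 11.68 and 10.65 in the KO and 10.77 to 10.96 in the HET pools, and its 2 probe sets gave 0.33 and -0.39. At the second the pools were separated, with 7.30 and 7.16 in the KO and 7.51, 7.53 and 7.83 in the HET pools (limma adjusted p = 0.423). Lrp5 differed by 0.29, Fzd1 by 0.38, Fzd4 by 0.14 and Fzd6 by 0.12, all with overlapping pools. Fzd2 read 5.10 and 6.24 in the KO and 5.37 to 6.24 in the HET pools. In 6 of 48 members the KO pools differed from each other by more than 1 on the log2 scale, beside 3.86% of all genes. Of these, Rspo1, Rspo3, Fzd7, Lgr6 and Lrp6 were higher in knockout replicate 1 and Fzd2 was lower there.

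**Figure D3:**
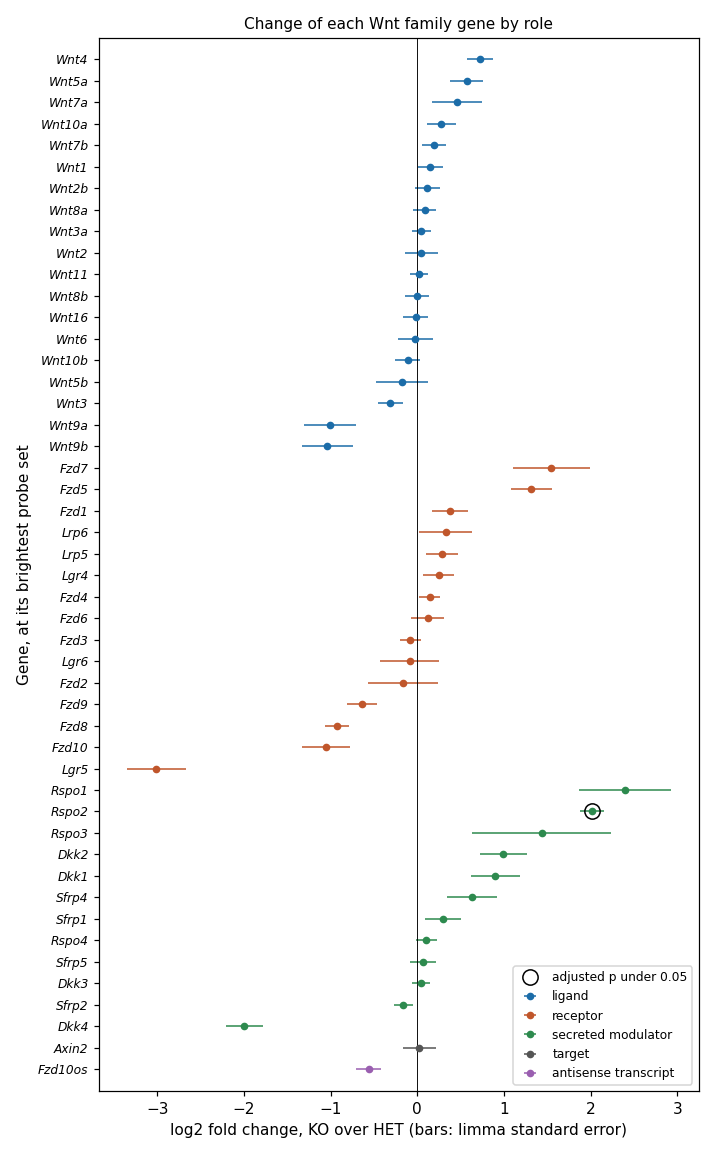
Log2 fold change, KO over HET, of the 48 genes by role, with bars for the limma standard error. Rspo2 is the 1 gene circled for an adjusted p under 0.05, at 2.02, and Lgr5 at -3.01 and Dkk4 at -1.995 lie farthest to the left.

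Of the 19 ligands, 7 reached the median level in both groups, and 5 of the 19 had separated pools, 26.3% beside 29.7% of all genes. Wnt4, a secreted ligand with roles in kidney and spinal cord development, read 9.22 and 8.82 in the KO, against 8.23, 8.29 and 8.37 in the HET pools. The log2 fold change was 0.73 ± 0.15 (adjusted p = 0.218), and the second probe set gave 0.46, also with separated pools. Wnt5a, the main ligand of the polarity pathway, read 7.87 and 7.54 in the KO and 7.13, 6.89 and 7.37 in the HET pools, a difference of 0.57 (adjusted p = 0.371). Its other probe sets at or above the median level gave 0.12 and -0.19 with overlapping pools.

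Wnt9a, Wnt9b and Wnt3 were on the lower side. Wnt9a read 8.55 and 9.50 in the KO, against 10.16, 9.80 and 10.12 in the HET pools, a difference of -1.003 (adjusted p = 0.338) that was -0.53 without knockout replicate 1. Wnt9b read 11.33 and 10.34 in the KO, against 11.995, 11.84 and 11.79 in the HET pools, a difference of -1.04 (adjusted p = 0.319) that was -0.55 without knockout replicate 2. The second probe sets of both genes read under 5 in every array and gave -0.07 and -0.13, so their probe sets do not give 1 picture of either gene. Wnt3 read 9.18 and 8.89 in the KO and 9.46, 9.38 and 9.19 in the HET pools, a difference of -0.31 (adjusted p = 0.52) that was -0.17 without knockout replicate 2. Wnt7a was high in knockout replicate 2, at 8.97, with 7.99 in replicate 1 and 7.91 to 8.08 in the HET pools. The remaining ligands gave differences between -0.17 (Wnt5b) and 0.28 (Wnt10a), with overlapping pools.

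The pools overlapped for Axin2, the target gene among the members. Axin2, a feedback inhibitor that β-catenin signalling switches on in most tissues, read 9.34 and 9.81 in the KO pools and 9.61, 9.70 and 9.35 in the HET pools. The log2 fold change was 0.02 with a 95% interval from -0.45 to 0.50. Its second probe set, under the median level, gave -0.46.

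Probe sets of a gene did not always go together. Of the 48 genes 30 had more than 1 probe set, and 26 of the 44 probe sets other than the brightest had its sign. Of the 13 of these at or above the median level, 8 had it. Genes with 2 or more probe sets at that level gave 1 sign in Fzd8, Lgr6 and Wnt4 and both signs in Dkk3, Fzd3, Lrp6, Sfrp1 and Wnt5a.

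**Figure D4:**
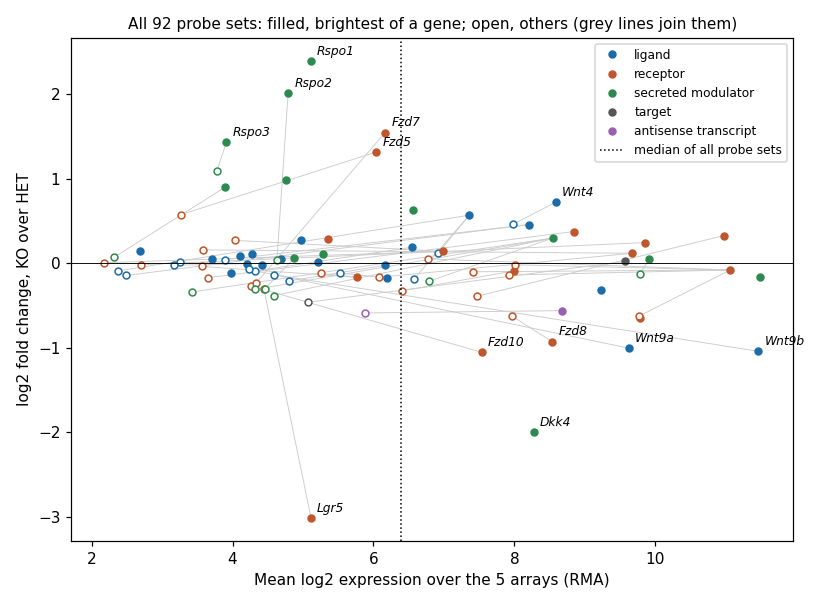
Log2 fold change, KO over HET, of all 92 probe sets against their mean log2 expression over the 5 arrays, with lines joining the probe sets of a gene. The differences of Rspo2, Rspo1, Rspo3 and Lgr5 lie left of the dotted line at the median of all probe sets, 6.39, and those of Dkk4, Fzd8, Wnt9a and Wnt9b right of it.

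The promoters of the members were searched for the TCF/LEF core, the letters to which the factors of β-catenin signalling bind. A window of 300 bases around the start of the gene, from the RefSeq promoters of GRCm38.p6, was found for 30 of the 48 genes. Rspo2, Rspo3, Lgr5 and Dkk4 had no window there and were not searched. The letters CTTTG followed by AA, AT, TA or TT, which are 4 strings, were searched on both strands, and 5 of the 33 windows of these genes, 15.2%, held 1 or more, each from a different gene, beside 16.9% of 32851 windows of all genes. A match is a description and not a binding site. Of the 5 genes, Dkk1 and Fzd7 had higher and Wnt3 had lower values in both KO pools, and Wnt11 and Wnt5b had overlapping pools. For Wnt3 the nearest pools were close, at 9.18 (KO) and 9.19 (HET). Pools were separated for 39.6% of all members and 29.7% of all genes, and a link between match and change was not tested. The windows of Dkk1, Fzd7 and Wnt3 are shown, with that of Rspo1, which held none of the strings and had the largest positive difference. The windows are Dkk1 at chr19:30549447-30549746 (minus strand), Fzd7 at chr1:59481897-59482196 (plus strand), Wnt3 at chr11:103773925-103774224 (plus strand) and Rspo1 at chr4:124986180-124986479 (plus strand). They are written 5′ to 3′ on the strand of the gene, and capitals mark the core.
Dkk1: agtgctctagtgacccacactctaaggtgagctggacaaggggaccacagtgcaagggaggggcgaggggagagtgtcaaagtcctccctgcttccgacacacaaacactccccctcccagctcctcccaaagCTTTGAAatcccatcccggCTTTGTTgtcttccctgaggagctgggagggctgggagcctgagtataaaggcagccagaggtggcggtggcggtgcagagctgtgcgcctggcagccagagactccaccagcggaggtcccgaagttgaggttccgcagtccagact
Fzd7: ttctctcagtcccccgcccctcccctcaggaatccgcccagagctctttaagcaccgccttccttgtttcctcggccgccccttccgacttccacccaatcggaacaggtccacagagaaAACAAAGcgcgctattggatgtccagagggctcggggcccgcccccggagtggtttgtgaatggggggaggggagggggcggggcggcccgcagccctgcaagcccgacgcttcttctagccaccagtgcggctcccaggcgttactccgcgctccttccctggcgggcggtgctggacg
Wnt3: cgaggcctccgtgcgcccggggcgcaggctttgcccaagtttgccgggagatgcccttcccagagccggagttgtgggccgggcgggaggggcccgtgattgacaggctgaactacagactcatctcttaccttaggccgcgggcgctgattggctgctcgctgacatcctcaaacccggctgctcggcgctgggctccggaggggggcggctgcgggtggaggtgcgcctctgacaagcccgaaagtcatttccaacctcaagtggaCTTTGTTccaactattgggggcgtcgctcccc
Rspo1: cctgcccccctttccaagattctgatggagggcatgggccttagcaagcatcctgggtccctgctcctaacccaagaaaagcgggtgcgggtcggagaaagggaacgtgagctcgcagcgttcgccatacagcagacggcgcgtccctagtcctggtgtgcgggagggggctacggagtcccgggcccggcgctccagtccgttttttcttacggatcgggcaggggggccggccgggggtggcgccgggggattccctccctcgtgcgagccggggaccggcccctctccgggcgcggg
The core began at positions 134 and 153 of the window in Dkk1, at position 121 in Fzd7, where it lies on the opposite strand, and at position 269 in Wnt3, counted from 1 at the 5′ end. The G and C content was 60.7% in the Dkk1 window, 66.7% in Fzd7, 65.7% in Wnt3 and 69% in Rspo1, beside a median of 52.7% over all windows.

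Wnt signalling beyond the family was read from lists of 4 kinds, of which 2 also hold members. In limma 0 genes of any list passed the adjusted threshold. At an unadjusted p under 0.05, 1 gene was higher and 4 lower of 22 further modulators and receptors, 4 higher and 0 lower of 32 genes acting inside the cell, 1 higher and 3 lower of 17 feedback targets and 3 higher and 1 lower of 17 planar cell polarity genes. These are 22.7%, 12.5%, 23.5% and 23.5% of the lists, beside 11.8% of all genes. The medians of the 4 lists were -0.07, 0.06, -0.09 and 0.04. The target list shares Axin2, Lgr5 and Dkk1 with the members, and the 1 higher target, Dkk1, and 1 of the 3 lower, Lgr5, are members. The polarity list shares Fzd3 and Fzd6.

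Sostdc1 and Wif1, further secreted inhibitors, were on the lower side. Sostdc1, an inhibitor of both BMP and Wnt signals, read 6.38 and 5.91 in the KO, against 7.25, 7.12 and 7.28 in the HET pools, a difference of -1.07 (adjusted p = 0.135). Wif1, which binds Wnt proteins, read 5.30 and 4.07 in the KO and 6.18, 6.01 and 6.41 in the HET pools, a difference of -1.52 (adjusted p = 0.259) with both group means under the median of all probe sets. It was chosen after its values were seen. Reck, a membrane protein of Wnt signalling in brain vessels, differed by -0.51, Porcn, which attaches the lipid that Wnts need, by -0.30 and Draxin, a guidance protein that also inhibits Wnt signals, by 0.45.

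Inside the cell the Groucho co-repressors (Tle), which bind TCF/LEF factors in the absence of β-catenin, went both ways. Tle4 read 11.51 and 11.17 in the KO, against 10.39, 9.99 and 9.91 in the HET pools, a log2 fold change of 1.24 ± 0.20 (adjusted p = 0.135). Tle3 differed by 0.73, Tle2 by 0.53 and the co-repressor gene Ctbp2 by 0.56, all with both KO pools above every HET pool. Tle1 differed by -0.64 with both KO pools below. Ctnnb1, which encodes β-catenin itself, read 13.62 and 13.60 in the KO and 13.50 to 13.60 in the HET pools, and Tcf7l2 read 12.95 and 13.20 in the KO and 12.74 to 12.92 in the HET pools.

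The feedback targets Lef1, Apcdd1 and Ccnd1 gave small differences. Lef1, a TCF/LEF factor, differed by -0.15, Apcdd1 by 0.22 and the cyclin gene Ccnd1 by 0.27, with adjusted p-values from 0.618 to 0.677. Myc read 7.31 and 6.82 in the KO, against 7.73, 7.68 and 7.98 in the HET pools, a difference of -0.73 (adjusted p = 0.287). Among polarity genes, Vangl1, a membrane protein of the core complex, read 9.92 and 9.78 in the KO and 10.70, 10.77 and 10.51 in the HET pools, a difference of -0.81 ± 0.13 (adjusted p = 0.135). Rhoa, the small GTPase downstream, differed by 0.61, Daam2, a formin, by 0.56 and Ankrd6 by 0.35, with adjusted p-values from 0.289 to 0.358.

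**Figure D5:**
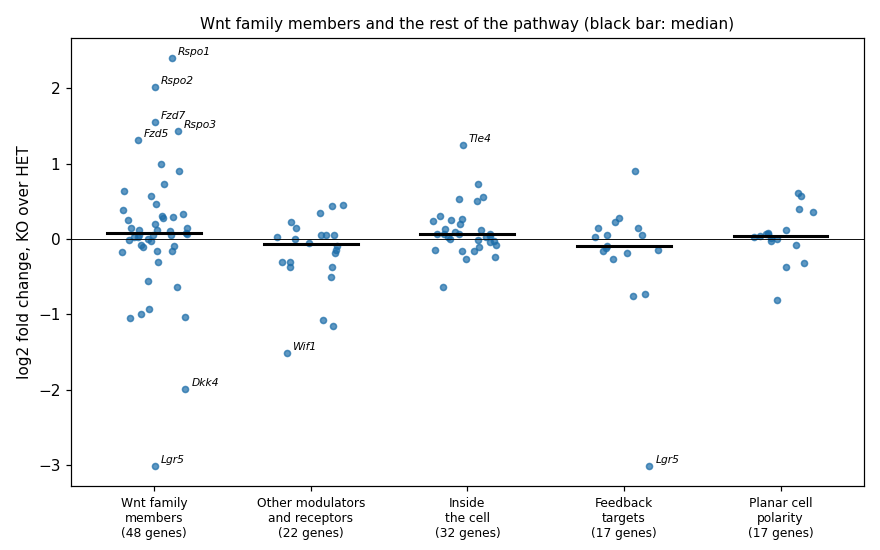
Log2 fold change, KO over HET, of each gene of the Wnt family and of 4 lists of the pathway, 2 of which also hold members, with a bar at the median. The members spread from -3.01 to 2.40, while the medians of all 5 groups lie between -0.09 and 0.07.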

How the data were processed

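Total RNA (20 ng) of dLGN tissue from 200 µm sections was amplified for Affymetrix arrays, per the labels' protocols. The deposited values are log2 expression per probe set, and the submitters' processing notes name RMA as the authors' method (its settings: not given in the sources used here). Because RMA gives all arrays 1 distribution, it would hide a shift common to most genes, and it compresses differences near background.

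Of 45101 probe sets, 64 array controls were left out. The platform annotation gave 34945 of the others 1 gene, 932 several and 9160 none, and only the first kind was named. KO was set against HET in limma 3.58.1 (R 4.3.3; lmFit, eBayes; genotype as the only term; two-sided), with Benjamini-Hochberg adjustment over 45037 probe sets. The fit was tested on 20 simulated sets of 45037 probe sets, with 200 changed in each and normal noise at the fit's own variances. It called 45.8% of the 2-fold and 96.1% of the 4-fold changes, with 9.25 false calls per set. Values after ± are standard errors, intervals are 95% intervals of the fit, and the number of arrays limits the precision.

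The members and lists were chosen with earlier results of these data known. Named were Sema6a, members called at any probe set, up to 12 in each direction with separated groups and a group mean at the median of all probe sets, the 2 brightest of each role in HET, members whose KO arrays differed by over 1 or whose probe sets above the median differed in sign, and up to 4 genes a pathway list by smallest p above that level. Of the members with separated groups, Rspo1, Fzd5, Fzd7 and Sfrp4 reached that level in the KO only. Further genes complete a family or role. Alternatives were a replicate block, quantile normalisation, array centring, a filter on dim probe sets, a trended or robust prior, array weights, each array left out, averaged probe sets, a looser threshold and a minimum fold of 1.5.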

Additional observations from a re-analysis of the deposited data

Results flagged for a closer look

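The array's own control probe sets, which take no part in the comparison of KO with HET, read the 3′ and 5′ ends of housekeeping transcripts. Knockout replicate 1 had a 3′ minus 5′ log2 difference of 2.34 for Gapdh, where the highest HET value was 1.32, and of 1.91 for Actb, where the highest HET value was 1.45. In knockout replicate 2 they were 0.96 (Gapdh) and 0.97 (Actb). Rspo1, Rspo3, Fzd7, Lgr6 and Lrp6 read higher in knockout replicate 1 than in replicate 2, and the part of RNA quality in that was not tested.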

How the results depend on the processing

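The count of members called, 1 with all arrays, was 3 at an adjusted p under 0.10 and 3 with an intensity trend (Rspo2, Dkk4 and Lgr5 with the trend), and 2 with each gene's probe sets averaged (Rspo2 and Dkk4). It was 0 with the replicate number as a block and 0 to 0 with any 1 array left out in limma, where 14 to 21 members had an unadjusted p under 0.05. Without dim probe sets 24 members were left, 9 had an unadjusted p under 0.05, Rspo2 and Lgr5 were no longer tested and Dkk4 was the 1 called (adjusted p = 0.0443). The median of the members stayed between 0.03 and 0.09 in all alternatives run. Over all probe sets 33 were called, against 19 with array weights, 100 with the trend, 99 genes with the mean of probe sets, 98 without dim probe sets, 0 with the block and 0 to 0 with 1 array left out. Sema6a stayed between -2.73 and -2.60 with 1 array left out and was -2.73 with the block, without a call there. Rspo2 lost its call with the replicate block (1.96, adjusted p = 0.298) and with each array left out. Samples that share a number correlated in their deviations from the group means at 0.15 (replicates 1) and 0.21 (replicates 2), and nothing in the labels says that the numbers mark pairs. No KO pool shares the number of control replicate 3. The block therefore gave the same estimates as leaving that array out, as for Sema6a (-2.73), and is not a separate comparison. The sign changed in at least 1 alternative for 17 of the 48 members, all with overlapping pools. With 1 array left out the values lay between -0.21 and 0.26 for Axin2, -0.74 and 0.41 for Fzd2, -0.043 and 0.28 for Fzd6, -0.66 and 0.48 for Lgr6, -0.19 and 0.85 for Lrp6, -0.037 and 0.16 for Sfrp5, -0.0114 and 0.0405 for Wnt11, -0.15 and 0.12 for Wnt16, -0.11 and 0.16 for Wnt2, -0.0445 and 0.28 for Wnt2b, -0.0167 and 0.12 for Wnt3a, -0.64 and 0.29 for Wnt5b, -0.20 and 0.15 for Wnt6, -0.0296 and 0.95 for Wnt7a and -0.091 and 0.081 for Wnt8b. With probe sets averaged Axin2 gave -0.22, Dkk3 -0.0374, Lrp6 -0.0302, Sfrp1 -0.19 and Sfrp5 -0.12. With the replicate block Axin2 gave -0.078 and Fzd2 0.0407, and with array weights Axin2 gave -0.0094. The causes were not tested. The other members kept their sign in the alternatives run. Rspo2 and Lgr5 lie under the median of all probe sets, and whether RMA compressed their differences was not tested.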

Other observations

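Some Wnt genes are direct neighbours in the annotation, with 0 coding genes between them. Wnt3 and Wnt9b, on chromosome 11, gave -0.31 and -1.04 (limma adjusted p = 0.52 and 0.319), and both had lower values in both KO pools than in every HET pool. For Wnt3 the nearest pools were 9.18 (KO) and 9.19 (HET), and the second probe set of Wnt9b gave -0.13 with overlapping pools. Wnt9a and Wnt3a, also on chromosome 11, gave -1.003 and 0.05, and Wnt3a read 4.65 and 4.79 in the KO pools and 4.61 to 4.71 in the HET pools. Wnt6 and Wnt10a, on chromosome 1, gave -0.02 and 0.28. Wnt10b and Wnt1, on chromosome 15, gave -0.11 and 0.15. The differences within a pair were not tested.

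Gpc4, a glypican that carries Wnt and FGF proteins at the cell surface, differed more between the KO pools than most genes of the pathway. It read 11.21 and 9.28 in the KO pools, against 11.78, 11.04 and 11.36 in the HET pools. It was chosen after its values were seen.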
